A study of Rattus norvegicus with 6 samples.

Results

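The upper flank of the viewpoint is the 1 Mb of rat chromosome 13 that lies above a gene promoter whose contacts were mapped by 4C-seq. Its members were chosen by position relative to the viewpoint, as the EcoRI fragments that start between 55570181 and 56570180 in build rn5. There were 209 such fragments, of 794443 listed over all chromosomes, and they ran from 55570181 to 56573685. The cells were cardiac endothelial cells, cultured from the heart's vessel lining and used at passage 2. Both sexes were pooled, and the cells were fixed in 2% formaldehyde for 10 min at room temperature. One group was the Dahl salt-sensitive strain SS/JrHsdMcwi, called SS. The other was the consomic strain SS-13BN/Mcwi, called SS13BN, which has chromosome 13 of the Brown Norway rat on the SS background. The viewpoint and the whole flank are thus of Brown Norway origin in SS13BN and of SS origin in SS. Each strain had 3 libraries, but chromosome 13 was listed at 0 throughout in number 3 of each strain. The flank was therefore measured in 4 libraries, SS 1, SS 2, SS13BN 1 and SS13BN 2. No source ties the libraries of a strain to separate animals or cultures, so the spread between them may be technical. The p-values between strains compare such libraries, and those between flanks rest on contrasts within each library. No RNA was measured, so the cell type could not be checked against markers.

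In 4C-seq, chromatin is cross-linked, cut with a restriction enzyme and ligated, so that DNA ends that lay close together in the nucleus become joined. Fragments joined to the viewpoint are amplified from it and sequenced, and the reads of a fragment are a measure of how often it was ligated to the viewpoint. Contact frequency usually falls steeply with linear distance, and folding of chromatin into domains makes it fall faster at domain borders and slower within them. The method finds proximity, and a contact is not by itself evidence that a sequence regulates the promoter.

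The annotation used here was of build GRCr8, not rn5, so no fragment was assigned to a gene. In GRCr8 the protein-coding genes that follow the viewpoint's gene towards higher coordinates are, in order, Etnk2, Sox13, Snrpe, Zc3h11a, Zbed6, Lax1, Atp2b4, Optc, Prelp, Fmod and Btg2. Etnk2 encodes an ethanolamine kinase and Sox13 a transcription factor of the SOX family. Snrpe encodes a core protein of the spliceosome, and Zc3h11a a zinc finger protein of messenger RNA export. Atp2b4 encodes a calcium pump of the plasma membrane, and Optc, Prelp and Fmod encode small leucine-rich proteoglycans of the extracellular matrix. Of 18 genes listed as neighbours of the locus in other mammals, 10 lay on this side in GRCr8 and 8 on the other. Whether rn5 keeps this order was not tested.

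The region scored by reads around the viewpoint held 188887 reads for SS 1, 370530 for SS 2, 180973 for SS13BN 1 and 144406 for SS13BN 2. The upper flank held 58084 of them in SS 1, or 30.8% (95% Wilson interval 30.5% to 31.0%). It held 106134 in SS 2, or 28.6% (28.5% to 28.8%). In SS13BN 1 it held 55894, or 30.9% (30.7% to 31.1%), and in SS13BN 2 it held 36064, or 25.0% (24.8% to 25.2%). SS13BN 2 was the lowest by both measures, and the other 3 libraries lay within a few percentage points of each other. These intervals treat reads as independent, but reads amplified from a viewpoint are not independent molecules. They can thus be too narrow even for counting error, and they leave out the spread between libraries.

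Nearly every fragment of the flank had reads in every library. Of the 209 fragments, 207 had reads for SS 1, 208 for SS 2, 204 for SS13BN 1 and 204 for SS13BN 2, and 202 had reads in all 4. No fragment was without reads in all of them. The median fragment had 96 reads for SS 1, 227 for SS 2, 101 for SS13BN 1 and 86 for SS13BN 2. The highest had 5647, 5514, 6595 and 1948 reads in the same order. Reads were concentrated in few fragments. The 10 highest fragments of each library held 45.6% of the flank's reads for SS 1, 34.5% for SS 2, 46.3% for SS13BN 1 and 34.5% for SS13BN 2. To reach 50% of the flank's reads took 14 fragments for SS 1, 23 for SS 2, 13 for SS13BN 1 and 25 for SS13BN 2. The libraries numbered 1 were thus more concentrated than those numbered 2, in both strains.

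By mean share, the flank's reads lay in a dense zone next to the viewpoint, in bins of intermediate shares from 100 to 400 kb, and in lower bins beyond. The first 50 kb, with 13 fragments, held 42.3% ± 6.90 (SD, n = 4) of the flank's reads. The next 50 kb, with 8 fragments, held only 4.86% ± 1.59. From 100 to 400 kb the share was 11.7% ± 1.79, 12.3% ± 1.81 and 8.96% ± 0.810 in successive bins of 100 kb (SD, n = 4). The fall between the last 2 of these bins differed by library. It was from 14.4% to 9.05% in SS 2 and from 13.1% to 8.83% in SS13BN 2. In SS 1 it was from 11.0% to 9.96%, and in SS13BN 1 from 10.5% to 7.99%. From 400 kb on, the bins held 5.66% ± 2.65, 3.63% ± 0.513, 3.94% ± 0.303, 3.48% ± 1.13, 1.90% ± 0.464 and 1.39% ± 0.408. These 3 zones were described after the values were seen.

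**Figure D1:**
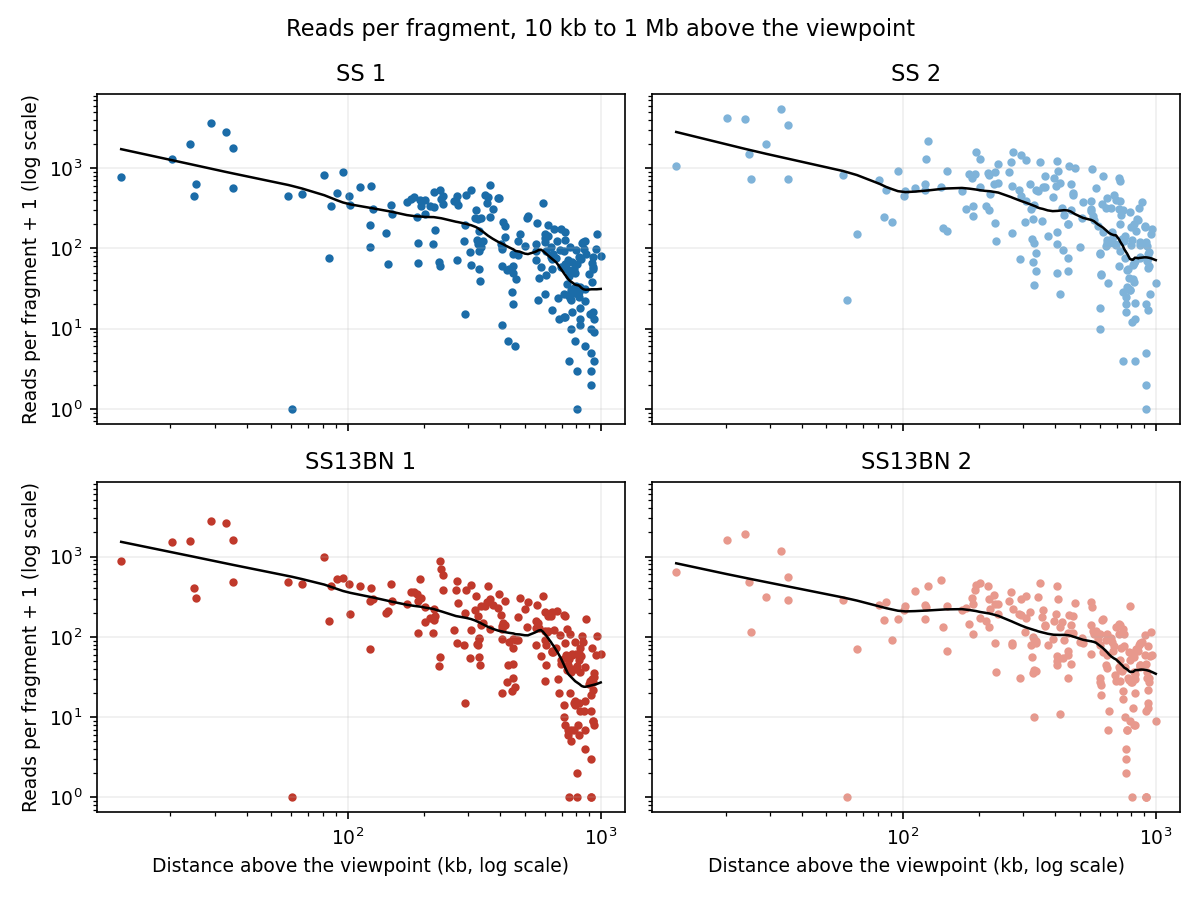
Reads per fragment plus 1 against distance above the viewpoint (both axes logarithmic), 1 panel per library, for the 205 fragments from 10 kb to 1 Mb; each point is a fragment and the line is a lowess curve. In every library reads fall with distance, the curve bends down at larger distances, and the fragment at 60.4 kb stands far below the curve.

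Mean reads per fragment were higher from 100 to 400 kb than from 400 kb to 1 Mb in each library, as any fall with distance gives. They were 281 and 68.9 for SS 1, 599 and 208 for SS 2, 252 and 74.4 for SS13BN 1, and 201 and 71.1 for SS13BN 2. Below 400 kb lay 85.3% of the flank's reads for SS 1, 75.7% for SS 2, 83.5% for SS13BN 1 and 75.6% for SS13BN 2. A drop at 400 kb was seen only in the libraries numbered 1. From the bin of 300 to 400 kb to that of 400 to 500 kb, reads per fragment went from 252 to 79.3 in SS 1 and from 194 to 106 in SS13BN 1. In SS 2 they went from 417 to 422 and in SS13BN 2 from 138 to 128. In these libraries they were 334 and 126 from 500 to 600 kb, and 202 and 65.4 from 600 to 700 kb. The bin from 400 to 500 kb held 2.87% of the flank's reads in SS 1 and 3.96% in SS13BN 1, against 8.34% in SS 2 and 7.45% in SS13BN 2. The bin from 500 to 600 kb has 12 fragments against 21 in the bin before it.

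The fragments next to the viewpoint were among the highest of the flank in every library. The fragment that adjoins it, from 55570181 to 55572334, had 5647 reads for SS 1, 5227 for SS 2, 6595 for SS13BN 1 and 1582 for SS13BN 2. As a share of the flank this was 9.72%, 4.92%, 11.8% and 4.39%. The next, from 55572335 to 55577312, had 4800, 4761, 4324 and 1948 reads. Ligation to adjoining fragments includes ends that were never cut or were joined again, so fragments within 10 kb, 4 in this flank, were left out of the slopes, the ratio of the flanks and the strain comparison of the flank's share. Shares of the flank's reads include them. They held 24.3% of the flank's reads for SS 1, 14.3% for SS 2, 26.5% for SS13BN 1 and 16.8% for SS13BN 2.

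**Figure D2:**
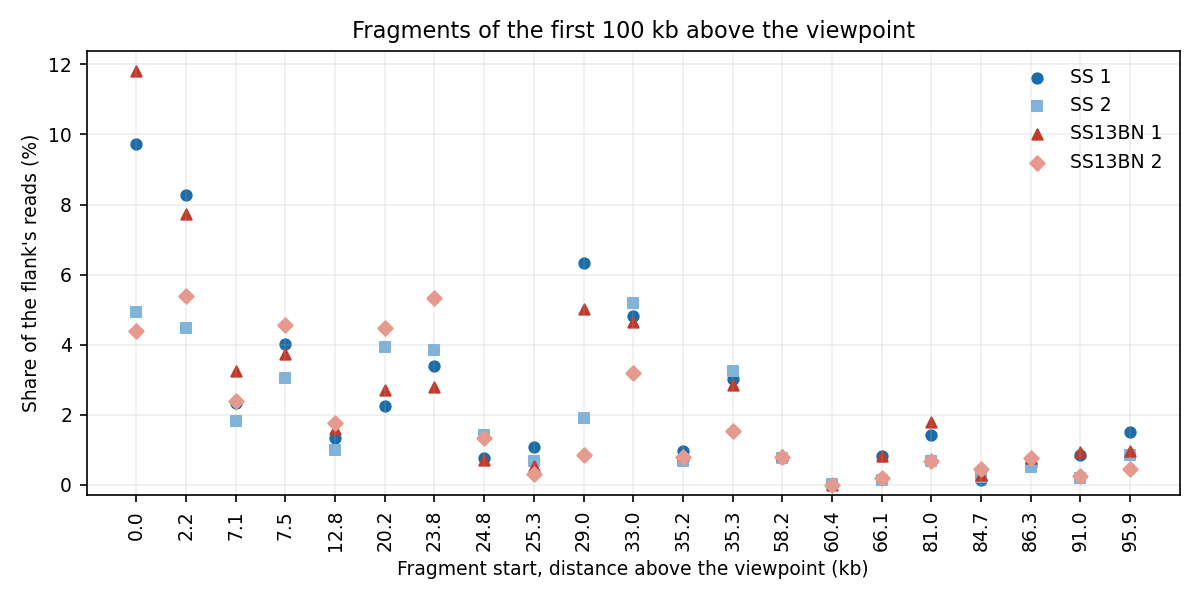
Share of the flank's reads (percent) in each of the 21 fragments of the first 100 kb, ordered by distance of the fragment's start above the viewpoint in kb; each symbol is 1 library. The fragments at 20.2 to 35.3 kb include a second group of high values, and the fragment at 29.0 kb runs from 0.860% in SS13BN 2 to 6.32% in SS 1.

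Beyond 10 kb, the densest contacts lay in fragments that start 20.2 to 35.3 kb above the viewpoint. Of the 10 fragments with the highest mean reads, scaled to equal library totals, 7 lay within 50 kb and 8 within 100 kb. The highest, from 55603193 to 55605362 at 33.0 kb, had 2794 reads for SS 1, 5514 for SS 2, 2595 for SS13BN 1 and 1155 for SS13BN 2. It held 4.46% ± 0.871 (SD, n = 4) of the flank's reads. In SS 2 it was the highest fragment of the whole flank, and in SS 1 and SS13BN 1 it came second beyond 10 kb, after the fragment at 29.0 kb. The fragment from 55594028 to 55594943 at 23.8 kb is 916 bp long and had 1967, 4098, 1565 and 1919 reads. Its neighbour from 55590409 to 55594027 had 1299, 4178, 1521 and 1617 reads. In SS13BN 2 this pair held the highest values beyond 10 kb.

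A dense zone does not mean that every fragment in it was high. The fragment from 55599179 to 55603192 at 29.0 kb had 3673 reads for SS 1, 2018 for SS 2, 2801 for SS13BN 1 and 310 for SS13BN 2. Its share of the flank was 6.32% and 5.01% in the libraries numbered 1, and 1.90% and 0.860% in those numbered 2, with no overlap between the numbers. Between it and the high pair at 20.2 and 23.8 kb lay the fragment from 55595483 to 55599178, with only 627, 724, 301 and 115 reads. The remaining fragments of the 10 highest were that from 55605451 to 55628416, with 1755, 3441, 1597 and 560 reads, that from 55582961 to 55590408, with 773, 1048, 887 and 638, and that from 55594944 to 55595482, with 448, 1507, 401 and 482. At 81.0 kb, the fragment from 55651163 to 55654849 had 820, 709, 994 and 248 reads.

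Farther out, 2 of the 10 highest fragments lay between 100 and 400 kb. The fragment from 55696507 to 55712131 at 126 kb is 15.6 kb long. It had 312 reads for SS 1, 2175 for SS 2, 299 for SS13BN 1 and 424 for SS13BN 2, which is 0.537%, 2.05%, 0.535% and 1.18% of the flank. It was thus higher in the libraries numbered 2 than in those numbered 1. The fragment from 55801607 to 55804546 at 231 kb had 530, 902, 889 and 256 reads, and its highest share was 1.59% in SS13BN 1.

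No fragment stood above the general fall with distance by the margin used here in all 4 libraries. Each library was given a smooth curve of reads on distance by lowess. A fragment counted as above or below it when it departed by more than 2 scaled median absolute deviations in every library. Of 205 fragments from 10 kb, 0 (0%) were above the curve, and 3 (1.46%) were below it. The same rule in the lower flank found 0 of 235 (0%) above and 5 (2.13%) below. In single libraries, at most 1 fragment of the upper flank was above the curve. Per kb of fragment length instead of per fragment, 4 were above it, and all 4 were under 100 bp long. By this rule no distant fragment stood out as a peak that all libraries shared. Lesser departures were not counted. The fragment that starts at 56290505, picked after its values were seen, was 1.37 to 1.69 scaled median absolute deviations above the curve.

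The 3 fragments below the curve were nearly empty. The fragment from 55630551 to 55636238 lies 60.4 kb above the viewpoint and is 5.69 kb long. It had 0 reads for SS 1, 22 for SS 2, 0 for SS13BN 1 and 0 for SS13BN 2. Its neighbours had 451 and 470 reads for SS 1, 821 and 152 for SS 2, 479 and 454 for SS13BN 1, and 285 and 70 for SS13BN 2. The gap was thus limited to a single fragment inside a zone of many contacts. The other 2 adjoin each other at 912 and 913 kb. That from 56482663 to 56482849 had 2, 1, 2 and 0 reads, and that from 56482850 to 56484089 had 4, 4, 0 and 0.

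The pair at 912 kb was part of a run of 4 adjacent fragments with few reads, from 56481954 to 56484725. The first had 9, 0, 11 and 0 reads in SS 1, SS 2, SS13BN 1 and SS13BN 2, and the last had 1, 19, 0 and 11. On either side, the fragment that starts at 56473857 had 14, 181, 27 and 105 reads, and that at 56484726 had 14, 119, 18 and 45. One further fragment had no reads in most libraries, from 56375071 to 56378406 at 805 kb, with 0, 11, 0 and 0. Whether reads can be aligned uniquely to these fragments was not tested, since no rn5 sequence was used here.

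Longer fragments had more reads. Spearman's correlation of reads with fragment length over the 205 fragments was 0.286 for SS 1, 0.326 for SS 2, 0.272 for SS13BN 1 and 0.308 for SS13BN 2. Once distance was taken out by the curve, it was 0.416, 0.444, 0.400 and 0.436. Fragments ran from 6 to 37003 bp, with a median of 3177 bp. The median fragment of 10 kb or more distance had 28 reads when under 500 bp long and 102 when longer in SS 1, and 72 and 242 in SS 2. These were 53 and 113 in SS13BN 1, and 38 and 92 in SS13BN 2. Neighbouring fragments were weakly alike beyond the fall with distance, with correlations of 0.260, 0.207, 0.235 and 0.211. These are descriptions across fragments, which share a library and its depth and are not replicates.

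From 10 kb to 1 Mb, the upper flank had fewer reads than the lower flank in each library. It had 0.431 times the reads of the lower flank for SS 1, 0.462 times for SS 2, 0.434 times for SS13BN 1 and 0.418 times for SS13BN 2. All 4 libraries lay on the same side, and the mean log2 ratio was -1.20 ± 0.0605 (SD, n = 4). The exact two-sided sign-flip permutation p was 0.125, the smallest that 4 libraries allow. The numbers of fragments, 205 and 235, differ much less than the reads. To 500 kb only, the log2 ratio was -0.700.

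The ratio changed along the flank. In the first 100 kb the upper flank had 1.95 times the reads of the lower flank for SS 1, 1.35 times for SS 2, 1.74 times for SS13BN 1 and 1.08 times for SS13BN 2. That bin holds the adjoining fragments. Without those within 10 kb, an alternative added after the data were seen, the ratio was 1.54, 1.08, 1.34 and 0.986, so in SS13BN 2 it no longer stood above 1. From 100 to 200 kb the ratio was 0.559, 0.789, 0.574 and 0.698, so the upper flank was lower in all 4 libraries. It was lower in every further bin and library as well. In summed reads the ratio was lowest from 500 to 600 kb, with 1716 reads against 27741 in SS 1 and 4002 against 49540 in SS 2. In SS13BN 1 these were 2006 against 21988 and in SS13BN 2 they were 1510 against 17955, so the ratio lay between 0.0619 and 0.0912. That bin has 12 upper and 28 lower fragments, while the bin from 400 to 500 kb has 21 and 15. Per fragment, also added after the data were seen, the ratio from 500 to 600 kb was 0.144, 0.188, 0.213 and 0.196, and from 400 to 500 kb it was 0.0776, 0.326, 0.105 and 0.262. In SS 1 and SS13BN 1 it was thus lower from 400 to 500 kb. From 700 to 800 kb the ratio of summed reads was 0.757, 0.627, 0.594 and 0.584. That bin has 30 upper and 20 lower fragments, and per fragment the ratio was 0.505, 0.418, 0.396 and 0.389.

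**Figure D3:**
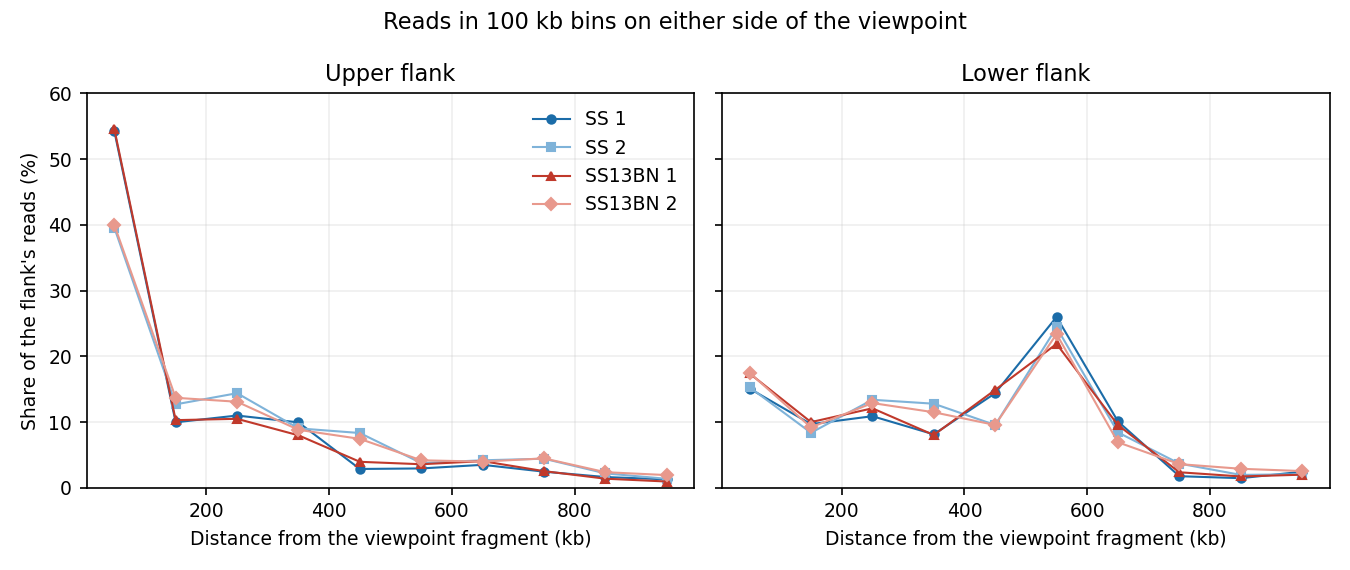
Share of each flank's reads (percent) in bins of 100 kb against distance from the viewpoint fragment in kb, upper flank left and lower flank right, 1 line per library. In the upper flank the first bin holds 39.6% to 54.6% and later bins at most 14.4%, while the lower flank peaks at 500 to 600 kb, where the upper flank holds 2.95% to 4.19%.

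**Figure D4:**
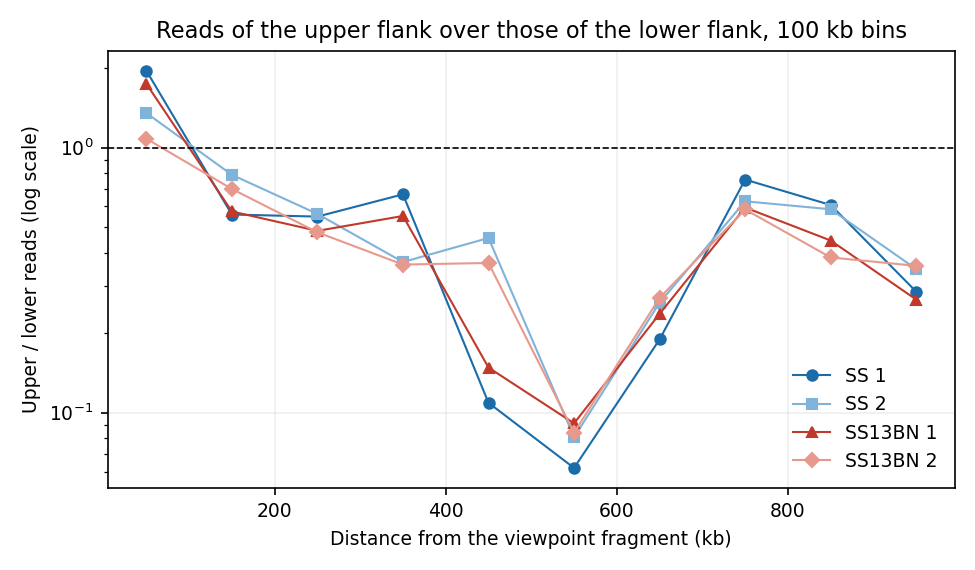
Reads of the upper flank over reads of the lower flank (logarithmic axis) in bins of 100 kb against distance from the viewpoint fragment in kb, 1 line per library; the dashed line marks equal reads. With the fragments within 10 kb included, all libraries are above the line in the first bin, from 1.08 to 1.95; in the other 9 bins they are below it, with the lowest summed-read ratios from 500 to 600 kb.

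A single slope fitted from 10 kb to 1 Mb was steeper above the viewpoint than below it. The slope of log10(reads + 1) on log10 distance from 10 kb to 1 Mb was -1.03 above and -0.530 below in SS 1, and -0.948 and -0.499 in SS 2. It was -1.08 and -0.605 in SS13BN 1, and -0.852 and -0.437 in SS13BN 2. The upper slope was steeper in 4 of 4 libraries, by -0.460 ± 0.0371 (SD, n = 4), with an exact sign-flip permutation p of 0.125, the smallest possible here. From 100 kb on, an alternative added after the data were seen, the difference was -0.716, and on 20 kb windows of summed reads it was -0.201. The upper slope was steeper under each of these settings, while the size of the difference depended on them. A single slope describes the lower flank poorly, since its reads did not fall evenly. Of its own reads, the lower flank held 23.9% ± 1.72 from 500 to 600 kb and 2.86% ± 0.945 from 700 to 800 kb (SD, n = 4). In the upper flank these shares were 3.63% ± 0.513 and 3.48% ± 1.13. Between these bins the lower flank thus fell more in share than the upper. The upper bins have 12 and 30 fragments, and per fragment the upper flank fell too. Reads per fragment went from 143 to 47.7 in SS 1 and from 334 to 157 in SS 2. They went from 167 to 47.3 in SS13BN 1 and from 126 to 53.9 in SS13BN 2.

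The share of contacts in the upper flank was not detectably different between the strains. Of the region's reads outside 10 kb, the flank held 25.9% in SS 1 (95% Wilson interval 25.7% to 26.1%) and 26.1% in SS 2 (25.9% to 26.2%). It held 25.6% in SS13BN 1 (25.4% to 25.8%) and 22.5% in SS13BN 2 (22.3% to 22.7%). The strain means were 26.0% ± 0.137 and 24.1% ± 2.21 (SD, n = 2 each). Both SS13BN libraries were below both SS libraries, but the difference of -1.91 percentage points was smaller than the spread within SS13BN. Its exact two-sided permutation p was 0.333, the smallest that 2 against 2 libraries allow. Without SS13BN 2 the difference was -0.349, and without SS13BN 1 it was -3.47. The order of the libraries depended on the distances used. With fragments within 10 kb included the strains overlapped, since SS13BN 1, at 30.9%, was above SS 2, at 28.6%. From 50 kb the difference was -1.29, and with the flank to 500 kb it was -1.94. The strains overlapped in both, with an exact permutation p of 0.667 each.

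Neither the fall with distance nor the profile passed a test between strains. The upper slope was -0.990 ± 0.0593 for SS and -0.965 ± 0.160 for SS13BN (SD, n = 2 each). The difference of 0.0250 was smaller than the SD of either strain, with an exact permutation p of 1, and turned to -0.0882 without SS13BN 2 and to -0.0169 without SS 1. In the first 100 kb, SS had 47.0% ± 10.4 of the flank's reads and SS13BN had 47.3% ± 10.4 (SD, n = 2 each). From 300 to 400 kb these were 9.50% ± 0.648 and 8.41% ± 0.593. In this bin both SS libraries, at 9.96% and 9.05%, were above both SS13BN libraries, at 7.99% and 8.83%, with an exact permutation p of 0.333. Of the 10 bins, 0 passed an adjusted p of 0.05 and 0 had an unadjusted exact permutation p under 0.05, a level that 2 against 2 libraries cannot reach.

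No fragment of the flank passed the test between strains. It was fitted with limma on log2(scaled reads + 1) over all 1359 fragments of the read-scored region with mean reads of at least 1. All 209 fragments of the flank were among them. With limma, 0 of the 209 had an adjusted p under 0.05 and 0 an unadjusted p under 0.05. Over the region, 0 of 1359 (0%) passed the adjusted threshold and 9 (0.662%) the unadjusted one. The median log2 difference, SS13BN minus SS, was -0.05 over the flank and 0.02 over the region. Of the flank's fragments 95 were higher in SS13BN and 114 lower, but 114 were higher and 95 lower once libraries were scaled to the flank's own reads. Both libraries of SS13BN were above both of SS in 20 of 209 fragments, or 9.57%, against 12.3% over the region. Both were below in 27, or 12.9%, against 11.0%, so neither share stood far from that of the region.

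The 3 fragments with the smallest p lay in the outer 300 kb, where reads were few. That from 56513548 to 56522490 at 943 kb had 3 and 26 reads for SS 1 and SS 2, and 34 and 57 for SS13BN 1 and SS13BN 2. It was higher in both SS13BN libraries, by 2.83 on the log2 scale (SE 1.40; limma adjusted p = 0.999). At 724 kb the fragment from 56294132 to 56299322 went the other way, with 62 and 387 reads for SS and 7 and 51 for SS13BN. Its shares of the flank overlapped between strains, since SS13BN 2, at 0.141%, was above SS 1, at 0.107%. The estimate was -2.25 (SE 1.21; limma adjusted p = 0.999). At 858 kb the fragment from 56427948 to 56432369 had 96 and 317 reads for SS, against 11 and 78 for SS13BN, an estimate of -1.82 (SE 1.11; limma adjusted p = 0.999). Here too the shares overlapped, with 0.165% for SS 1 and 0.216% for SS13BN 2. Leaving out 1 library turned none of these 3 estimates but moved those at 724 and 858 kb by over 1.5 times. At 724 kb the estimate was -0.72 without SS13BN 1, -1.40 without SS 2 and -3.79 without SS13BN 2. At 858 kb it was -0.29 without SS13BN 1 and -3.36 without SS13BN 2. At 943 kb it ran from 1.89 without SS 1 to 3.68 without SS 2. The 95% interval of the log2 difference had a median half-width of 1.96 over the flank's fragments and 2.92 over the region's. With replicate number as a block the flank's median half-width was 1.25. Differences inside these ranges were not detectable in a typical fragment under the respective fit.

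Libraries with the same number resembled each other more than libraries of the same strain. Over the 205 fragments, Spearman's correlation of reads was 0.884 between SS 1 and SS13BN 1 and 0.911 between SS 2 and SS13BN 2. It was 0.725 for the pair from SS and 0.701 for the pair from SS13BN. Part of any such correlation comes from distance, which all libraries share. With the curve taken out, the values were 0.689 and 0.814 within numbers and 0.511 and 0.324 within strains. Over all 209 fragments, the median absolute log2 difference was 0.904 between the means of the numbers and 0.386 between those of the strains. What the number stands for is not given in the labels.

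**Figure D5:**
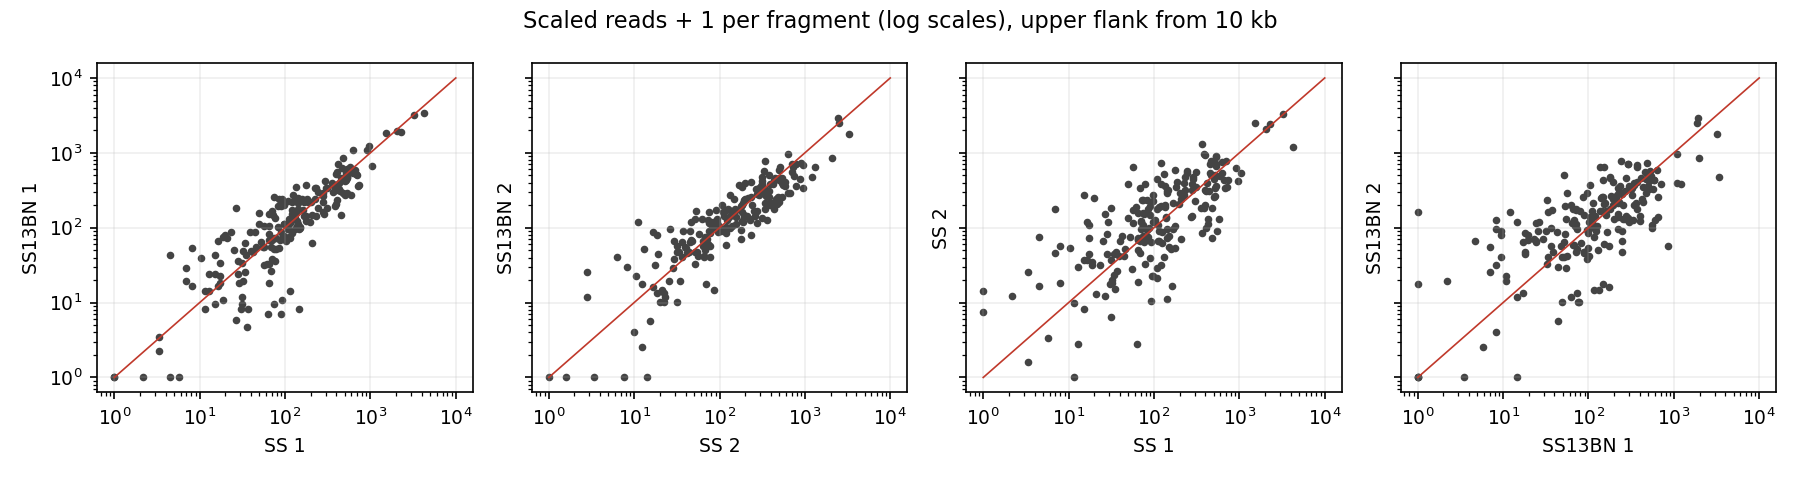
Reads per fragment plus 1, scaled to equal library totals, of 1 library against another (both axes logarithmic) for the 205 fragments from 10 kb to 1 Mb; the line marks equal values. Points lie closer to the line in the 2 left panels (same number, different strain) than in the 2 right panels (same strain, different number).

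Single fragments show the contrast between numbers, here picked after their values were seen. The fragment from 55978458 to 55980419 at 408 kb had 102 reads in SS 1 and 124 in SS13BN 1, but 1218 in SS 2 and 423 in SS13BN 2. The fragment from 55987716 to 55988554 at 418 kb went the other way, with 138 and 141 reads in the libraries numbered 1 and 26 and 10 in those numbered 2. The fragment from 55636239 to 55651162 at 66.1 kb had 470 and 454 reads in the libraries numbered 1 and 152 and 70 in those numbered 2.

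Reads per fragment were lowest in the outer part of the flank, and the same-number libraries differed most there. From 10 to 100 kb the median fragment had 627 reads for SS 1, 821 for SS 2, 529 for SS13BN 1 and 285 for SS13BN 2. From 700 kb to 1 Mb it had 31.0, 75.0, 27.0 and 37.0. There, 12 of 69 fragments had fewer than 10 reads for SS 1, 5 for SS 2, 20 for SS13BN 1 and 14 for SS13BN 2. The median absolute log2 difference between SS 1 and SS13BN 1 was 0.260 from 10 to 100 kb, 0.419 from 100 to 400 kb, 0.484 from 400 to 700 kb and 0.878 beyond. Between SS 2 and SS13BN 2 it was 0.407, 0.406, 0.456 and 0.695. Differences of more than 4-fold between same-number libraries of different strains were found in 14 fragments of the outermost class in the first pair and in 7 in the second. Between libraries of the same strain there were more, 17 for SS and 23 for SS13BN. In the 64 fragments from 100 to 400 kb there were 0 in either same-number pair, against 5 for SS and 6 for SS13BN. From 400 to 700 kb the same-number pairs had 4 and 2, and from 10 to 100 kb 0 and 1. Between libraries of different number the order was less regular. The median absolute log2 difference between SS 1 and SS 2 was 0.718, 0.732, 1.22 and 1.06 in the 4 classes from the innermost out, and between SS13BN 1 and SS13BN 2 it was 0.620, 0.753, 0.939 and 1.28.

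The outer bound of 1 Mb is not a border in the data. The last fragment inside it, from 56568695, had 80 reads for SS 1, 36 for SS 2, 60 for SS13BN 1 and 8 for SS13BN 2. The first outside, from 56573686, had 20, 268, 7 and 73. From 1 to 1.1 Mb the 15 fragments had 36.9, 106, 34.6 and 63.5 reads on average in the same order, and the last 100 kb of the flank had 39.4, 76.6, 28.3 and 36.8. Contacts went on beyond the bound at a level near that of the flank's last bin in the libraries numbered 1, and at a higher level in those numbered 2.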

How the data were processed

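Libraries of 4C-seq were made by the authors with EcoRI, per the labels' protocols. The submitters' processing notes name the build rn5 and CASAVA 1.8. Not given in the sources used here were aligner, filters and scoring program. The values the authors deposited are a score per fragment, which near the viewpoint equals reads minus their mean over their SD. Reads were recovered as whole steps of the score, within 0.01 read, for 100% of captured fragments in 3 libraries and 99.9% in SS13BN 2. The lowest captured fragment was taken to have 1 read, which was not tested. In SS13BN 2, scores summed to -14.0, and the fragment at 57407684, outside the flank, became whole when shifted by that amount (9727 reads for 4792). The region ran from 52028242 to 58275224. The viewpoint fragment, from 55560539 to 55570180, is listed at 0, and distance runs from its nearest end. It was located from the reads, as the fragment just below the one with the highest median over the scored libraries. Fragments without reads that share a row were separated by the cuts in the other libraries. Coordinates are those of the tables, whose first interval starts at 0, so they can differ by 1 base from a genome browser's.

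Strains were compared with limma 3.58.1 in R 4.3.3 on log2(scaled reads + 1), with Benjamini-Hochberg adjustment over the region and no block; a fold on this scale understates changes of low values. Single values were compared with exact permutation tests. The lowess fraction was 0.3. The limma script was tested on simulated data. Other steps ran in Python 3.11.15 with scipy 1.17.1, statsmodels 0.14.6 and, for plots, matplotlib 3.10.9. The flank, the lists and the tests were chosen with earlier results of these data known. Fragments were named by rule. These were the 10 with the highest mean reads beyond 10 kb and those above or below the curve. Up to 5 without reads in 2 or more libraries were added, and, as none passed, the 3 of smallest p. Others are said to be chosen after their values were seen, or lie beside these, the viewpoint or the outer bound. The very short fragments named last were above the curve per kb.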

Additional observations from a re-analysis of the deposited data

How the results depend on the processing

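Of 126 recomputed values, 117 kept their direction and their side of the threshold or, for counts, stayed within 1.5 times. Part of this was fixed in advance, so the tally is not a measure of robustness. The permutation tests cannot reach 0.05 with these libraries, so their side of the threshold could not change. The fragment shifted in SS13BN 2 lies outside both flanks, so its listed value could not move their ratio, the slopes or the curve. The strain difference in slope, 0.0250, turned to -0.00367 from 50 kb, to -0.0199 on 20 kb windows and to -0.0193 from 100 kb (added after the data were seen). With 1 library left out it ran from -0.0882 to 0.138. The 3 fragments below the curve became 1 with 3 scaled median absolute deviations, 1 with reads per kb and 1 with a pseudocount of 10, and the 0 above it became 4 with reads per kb. The cause was not tested. Leaving out 1 library kept the log2 ratio of the flanks between -1.23 and -1.18 and their slope difference between -0.475 and -0.446. The count of fragments that differed between strains was 0 in every setting of limma. Without a filter on reads 2 fragments (0.957%, against 2.40% over the region) had an unadjusted p under 0.05, with mean reads of at least 10 there was 1 (0.498% against 0.569%), and with 1 library left out there were 0 to 3 (0% to 1.44%, against 1.37% to 2.58%). A strain with 1 library was then taken to vary like the other.

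Deviations of same-numbered libraries from their strain means correlated at 0.572 over the flank. With only 2 pairs and no label that says what the number marks, it was not taken as a pairing. With replicate number as a block, 12 fragments of the flank (5.74%) had an unadjusted p under 0.05, against 71 of 1359 (5.22%) over the region, and 0 passed in limma (smallest adjusted p 0.801). Without the block both counts of the flank were 0. The block left the share difference at -1.91 and the slope difference at 0.0250, as it must with equal pairs. Depth limits the outer 300 kb most, where the median fragment had 27.0 to 75.0 reads.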

Other observations

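Very short fragments carried reads, and those given here are among the 4 that stood above the curve per kb. The fragment from 56171818 to 56171823 is 6 bp long and had 26 reads for SS 1, 9 for SS 2, 27 for SS13BN 1 and 26 for SS13BN 2. The fragment from 56290491 to 56290504 is 14 bp long and had 13, 200, 53 and 38 reads. The fragment from 55605363 to 55605450 in the dense zone is 88 bp long and had 565, 736, 482 and 286 reads, while its neighbours had 2794 and 1755 in SS 1. The flank held 24 fragments under 500 bp. How reads were assigned to fragments shorter than a read is not given in the sources used here.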
